A study of Mus musculus with 2 samples.

Results

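The enzymes that write, maintain and oxidise 5-methylcytosine in DNA were examined in the non-polyadenylated (NPA) RNA of mouse embryonic stem cells (ESCs) and of neuronal progenitor cells (NPCs) derived from them. They are 8 genes of the 37273 that GENCODE M1 annotates on the chromosomes of mm9, namely the maintenance pair *Dnmt1* and *Uhrf1*, the de novo group *Dnmt3a*, *Dnmt3b* and *Dnmt3l*, and the TET genes *Tet1*, *Tet2* and *Tet3*. They were chosen by name, and their levels are sense reads with at least 1 base in an annotated exon. The ESCs were R1 cells at passage 18, grown on a feeder layer of mouse embryonic fibroblasts. The NPCs came from these ESCs by 4 days as embryoid bodies and growth on poly-L-ornithine and fibronectin with ITS, and were gathered on day 7. Each cell type gave 1 strand-specific library, made after RNA bound by oligo(dT) and ribosomal RNA had been depleted, so a read of a coding gene comes from what this depletion left and its count is not the level of the whole mRNA.

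Methylation of cytosine in CG dinucleotides (CpGs) is copied after each round of replication by DNMT1, which UHRF1 brings to the half-methylated sites of the new DNA. DNMT3A and DNMT3B place methyl groups on unmethylated DNA, and DNMT3L, which has no catalytic activity of its own, binds and stimulates them. The TET dioxygenases oxidise the methyl group to 5-hydroxymethylcytosine and further, which opens a route back to plain cytosine through base excision repair. Embryonic stem cells are known for expressing *Tet1*, *Tet2* and *Dnmt3l*, whereas many differentiated cell types use *Tet3*.

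The deposited positions total 4271306 reads in the ESC library and 4399729 in the NPC library, and 1 read is worth 0.234 and 0.227 RPM (reads per 1000000 reads of the library). With 1 library per cell type there was no test between cell types. Intervals are 95% intervals of the counts (exact Poisson for a level, conditional binomial for a ratio, Clopper-Pearson for a share), cover counting error only, and compare these libraries, not the cell types. The genes with at least 10 reads in both libraries together numbered 14859, with a median log2 ratio (NPC over ESC) of 0.35. A gene that kept its place among the others is therefore 1.27-fold higher in the NPC library. Of the 14859 genes, 25.5% were more than 2-fold higher in the NPC library and 13.3% more than 2-fold lower, and 37.1% were lower by any amount. The marker counts that follow are to be read beside these shares. Of 12 marker genes of pluripotent cells 8 were more than 2-fold lower in the NPC library, with a summed level of 2361 RPM in ESCs and 669.8 RPM in NPCs, and none was at 0. All 12 extraembryonic endoderm markers were more than 2-fold higher in the NPC library, at 538.9 RPM in all in ESCs and 12330 RPM in NPCs. Neural progenitor markers were few, at 63.2 RPM in ESCs and 77.1 RPM in NPCs for the 10 annotated genes, and *Olig2* was at 0 reads in both libraries. Of the 6 with at least 10 reads, 3 were more than 2-fold higher in NPCs and 0 more than 2-fold lower, with a median log2 ratio of 2.19. By any amount 5 were higher and 1 lower, namely *Msi1* with 99 reads in ESCs and 60 in NPCs. The 3 past 2-fold, named after their values were seen, had few reads. They were *Pax6* with 1 in ESCs and 12 in NPCs, *Zic1* with 1 and 22 and *Pax3* with 0 and 13. *Nes*, *Msi1* and *Ncam1* held most of the sum. Of 10 fibroblast markers, which stand for the feeder cells, the sum was 54.1 RPM in ESCs and 71.4 RPM in NPCs, with *Lum* at 0 in both. Of the 8 with at least 10 reads, 2 were more than 2-fold higher and 1 more than 2-fold lower in NPCs. By any amount 7 were higher and 1 lower. Those past 2-fold, named after their values were seen, were *Col1a2* (51 reads in ESCs and 165 in NPCs), *Twist1* (2 and 8) and *Thy1* (79 and 12). The sum thus joined genes that went opposite ways. The NPC library thus carried few reads of the markers its label names and many of extraembryonic endoderm. The part of these cells in the results that follow was not tested, and in bulk RNA fewer cells of a type and less RNA per cell cannot be told apart.

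All 8 genes had reads in both libraries. The ESC library held 6109 exon reads of the 8 genes and the NPC library 4526. *Tet1* and *Tet2* were more than 2-fold lower in the NPC library, as were 13.3% of all genes with at least 10 reads. *Dnmt3b* and *Tet3* were more than 2-fold higher, as were 25.5% of all genes. By any amount, 3 of the 8 were lower in the NPC library (*Dnmt1*, *Tet1* and *Tet2*) against 37.1% of all genes, but 6 of the 8 once the libraries were scaled to the median gene, a scale on which as many genes lie below as above by construction. The median log2 ratio of the 8 genes was 0.06, beside 0.35 over all genes, and single genes ranged from -1.83 to 3.05.

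**Figure D1:**
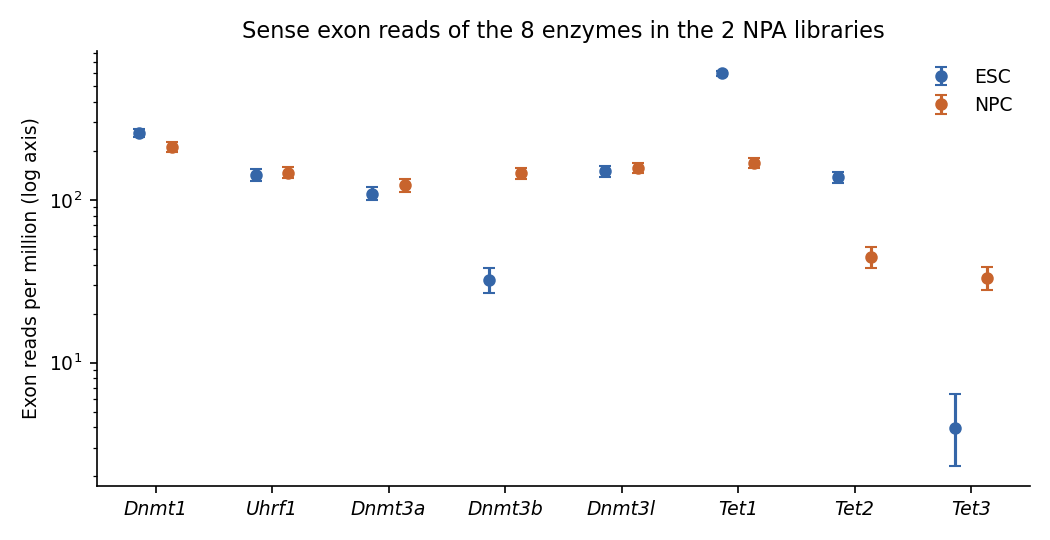
Sense exon RPM of each gene (log axis) in the ESC library (blue) and the NPC library (orange), with exact Poisson 95% intervals. *Tet1* at 598 RPM in ESCs is the highest point and *Tet3* at 3.98 RPM in ESCs the lowest, and the intervals of the libraries lie apart for *Dnmt1*, *Dnmt3b*, *Tet1*, *Tet2* and *Tet3*.

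**Figure D2:**
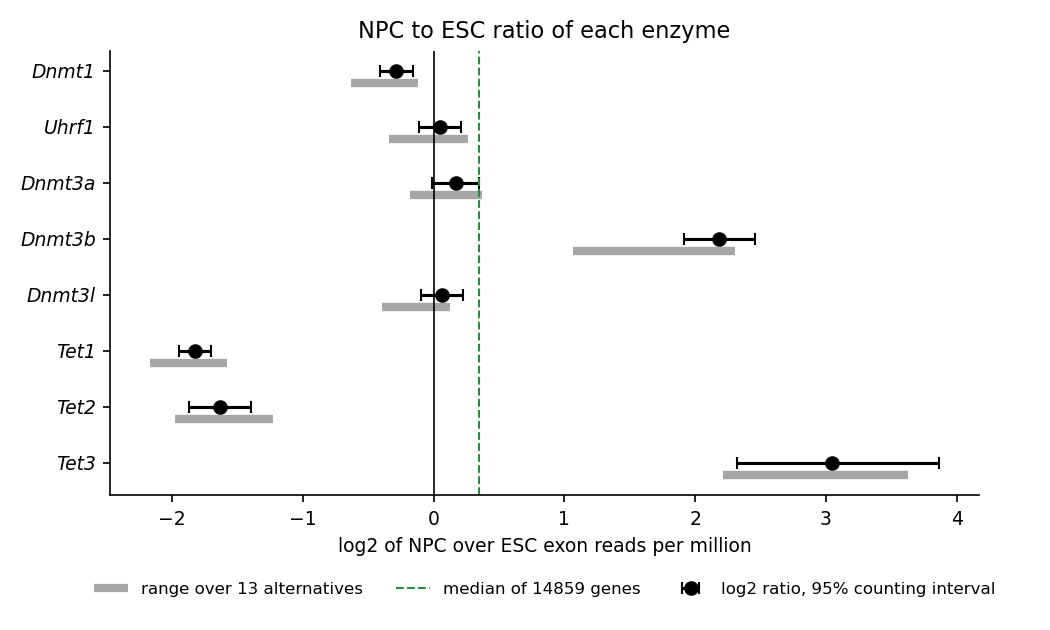
Log2 ratio of NPC to ESC exon RPM for each gene (points, with 95% counting intervals), its range over 13 other ways of counting or scaling (grey bars) and the median of all 14859 genes (dashed line). The ranges of *Uhrf1*, *Dnmt3a* and *Dnmt3l* cross 0, and those of *Tet1*, *Tet2*, *Dnmt3b* and *Tet3* stay more than 2-fold away from it.

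*Dnmt1* (ENSMUSG00000004099.8), the maintenance methyltransferase, is encoded on chromosome 9 (minus strand, 20711650 to 20757317 in mm9). It had 1099 exon reads in ESCs, or 257 RPM (242 to 273), and 929 in NPCs, or 211 RPM (198 to 225). The ESC library was thus 1.22-fold higher (1.12 to 1.33), and the NPC library was lower under all 13 alternatives. The difference was spread along the gene, since of the 30 joined exons holding 10 or more reads, 23 were lower in NPCs and 7 were higher. No exon dominated. The one with the most reads was the 33rd of 39 from the 5′ end in ESCs, with 83 reads there and 60 in NPCs, and the last in NPCs, with 59 reads in ESCs and 69 in NPCs.

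*Uhrf1* (ENSMUSG00000001228.8), the E3 ubiquitin ligase that reads half-methylated CpGs and recruits DNMT1, is encoded on chromosome 17 (plus strand, 56442744 to 56462909). It had 607 exon reads in ESCs, or 142 RPM (131 to 154), and 646 in NPCs, or 147 RPM (136 to 159). The ratio of NPC to ESC was 1.03 (0.923 to 1.16), and its direction changed with the scaling, to a log2 ratio of -0.30 relative to the median gene. Only 64.1% of its ESC reads and 69.8% of its NPC reads had a sequence found exactly once in mm9, against 88.3% or more for each of the other 7 genes in either library. The exon with the most reads was the last of 18, with 193 reads in ESCs and 247 in NPCs.

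Relative to *Dnmt1*, *Uhrf1* stood at 0.683 per base of exon in ESCs (0.617 to 0.754) and at 0.859 in NPCs (0.776 to 0.951). This ratio within a library does not depend on the scaling between libraries, and it was 1.26-fold higher in NPCs (1.09 to 1.45). Over coding bases alone the change was 1.16-fold with an interval from 0.981 to 1.36, which includes 1. Both genes act in S phase, and 14 marker genes of that phase summed to 1544 RPM in ESCs and 1624 RPM in NPCs. Of these, 1 was more than 2-fold higher in NPCs (*Tyms*, named after its value was seen), against 25.5% of all genes. More than 2-fold lower were 0, against 13.3% of all genes.

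RefSeq lists 3 starts of *Dnmt1*, of which the first is the one known from oocytes. Shown here are 70 bases before and the first 30 bases after the first and the second start, with the bases from the start on in capitals, because reads began to appear after only one of them. The sequences are from RefSeq (GRCm38.p6), and each was matched exactly and once to the mm9 positions given, on the minus strand.
Dnmt1 first start, chr9:20764303-20764402: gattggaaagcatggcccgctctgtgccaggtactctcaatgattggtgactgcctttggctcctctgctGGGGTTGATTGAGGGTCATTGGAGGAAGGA
Dnmt1 second start, chr9:20757394-20757493: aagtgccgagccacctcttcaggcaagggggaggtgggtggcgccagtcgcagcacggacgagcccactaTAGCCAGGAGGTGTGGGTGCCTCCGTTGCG

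Within 500 bases of the first start there were 0 reads in both libraries, which allows up to 3 reads in each. Within 500 bases of the second start there were 15 reads in ESCs and 16 in NPCs. The third start lies further down, at 20757067, and was followed by 0 reads in ESCs and 2 in NPCs. The 300-base windows of the 3 starts, 250 bases before to 50 after, held 2, 12 and 33 CpGs, where the median of all 32851 RefSeq promoters of the mouse is 7.

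*Dnmt3a* (ENSMUSG00000020661.9), a de novo methyltransferase, is encoded on chromosome 12 (plus strand, 3806007 to 3914443). It had 466 exon reads in ESCs, or 109 RPM (99.4 to 119), and 539 in NPCs, or 123 RPM (112 to 133). The NPC to ESC ratio of 1.12 had an interval from 0.990 to 1.27, and its direction turned to a log2 ratio of -0.18 relative to the median gene. Its annotated exons span 16642 bases, retained introns included, of which 2833 are coding, and the coding bases held 177 reads in ESCs and 234 in NPCs. The last of its 32 joined exons, which is 6838 bases long, held 66.1% of its reads in the ESC library and 62.3% in the NPC library.

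The gene makes a long transcript and a shorter one, often called Dnmt3a2, that starts at an internal promoter and is the known main form of stem cells. The 6 exons of the long transcript that precede this start held 18 ESC and 21 NPC reads, and those that both transcripts share held 240 and 298. Per base, the upstream exons were at 0.448 of the shared ones in ESCs (0.261 to 0.723) and at 0.421 in NPCs (0.257 to 0.655). Fewer reads per base therefore lay upstream in both libraries, and the intervals of the libraries overlapped. The first exon of the short transcript, of 117 bases, had 1 read in ESCs and 0 in NPCs, so neither start was marked by reads of its own. Reads across exon junctions could not be placed, and short exons are undercounted for that reason.

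*Dnmt3b* (ENSMUSG00000027478.9), the other catalytic de novo enzyme, is encoded on chromosome 2 (plus strand, 153475186 to 153513466). It had 137 exon reads in ESCs, or 32.1 RPM (26.9 to 37.9), and 640 in NPCs, or 145 RPM (134 to 157). The NPC library was 4.54-fold higher (3.77 to 5.49), and 6.35% of all genes had a higher ratio. All 14 joined exons with at least 10 reads were higher in NPCs. When reads that start at the same base were counted once, 99 remained in ESCs and 253 in NPCs, and the ratio was 2.12-fold, so its size rests in part on repeated positions. Whether these are copies from PCR or fragments of abundant RNA was not tested.

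The last exon of *Dnmt3b* held 58 reads in ESCs and 310 in NPCs, 48.4% of all its NPC reads, and was 5.19-fold higher in NPCs (3.91 to 6.99). The 19 other exons that the transcripts Dnmt3b-001 and Dnmt3b-006 share held 69 and 307 reads and were 4.32-fold higher (3.32 to 5.69). Both parts gave the same direction. The 4 exons that Dnmt3b-001 has and Dnmt3b-006 lacks, 364 bases in all, held 6 reads in ESCs and 13 in NPCs, or 3.86 and 8.12 RPKM (RPM per kilobase of exon), beside 6.51 and 28.1 RPKM over the shared exons before the last. These counts are too few to say which form was made.

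*Dnmt3l* (ENSMUSG00000000730.7), the cofactor of the de novo enzymes, is encoded on chromosome 10 (plus strand, 77504692 to 77526367). It had 640 exon reads in ESCs, or 149.8 RPM (138 to 162), and 689 in NPCs, or 157 RPM (145 to 169). The NPC to ESC ratio was 1.05 (0.937 to 1.17), and it turned to a log2 ratio of -0.28 relative to the median gene. Single exons did not all go the same way. Of the 13 joined exons with at least 10 reads, 5 were higher and 8 lower in NPCs. The 5th, named after its value was seen, had 157 reads in ESCs and 80 in NPCs, a ratio of 0.495 (0.373 to 0.652). The 9th, with the most reads in both libraries together, had 110 and 234, a ratio of 2.07 (1.64 to 2.61).

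The 9th exon was carried by 1 position. Of all reads of *Dnmt3l*, 37 in ESCs (5.78%) and 135 in NPCs (19.6%) began at the same base, 77514778, where the 48 coding bases of the read are those below, from mm9 and with no base marked.
Dnmt3l, chr10:77514778-77514825, plus strand: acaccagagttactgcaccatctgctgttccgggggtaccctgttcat

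Counting each start once left 17 distinct starts in ESCs and 19 in NPCs in the 9th exon, and 44 and 30 in the 5th. The 9th exon was then nearly even and the 5th was still lower in NPCs. The 5th exon is the second behind the middle start described next.

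RefSeq gives *Dnmt3l* 3 starts, and the reads lay after the middle one. The windows around all 3 are shown because they differ so clearly in the reads that follow them. Capitals mark the first 30 bases from the start on, the sequences are from RefSeq (GRCm38.p6), and the positions are their exact and single matches in mm9, on the plus strand.
Dnmt3l first start, chr10:77504962-77505061: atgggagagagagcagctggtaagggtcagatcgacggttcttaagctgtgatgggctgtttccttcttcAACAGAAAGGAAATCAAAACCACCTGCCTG
Dnmt3l middle start, chr10:77512517-77512616: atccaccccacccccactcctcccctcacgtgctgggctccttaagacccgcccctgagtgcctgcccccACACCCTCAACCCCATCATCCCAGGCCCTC
Dnmt3l last start, chr10:77518010-77518109: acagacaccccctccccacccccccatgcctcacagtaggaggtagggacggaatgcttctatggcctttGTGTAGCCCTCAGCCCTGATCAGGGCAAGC

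In the 500 bases after the first start there were 0 reads in both libraries. After the middle start there were 168 reads in ESCs and 81 in NPCs, and after the last start 1 and 8. Most reads near a start thus lay behind the middle one in both libraries, and over the first 2 joined exons there the NPC library was at 0.468 of the ESC level (0.355 to 0.614). Of the 3 windows of 300 bases, the first held 6 CpGs, the middle 4 and the last 3.

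**Figure D3:**
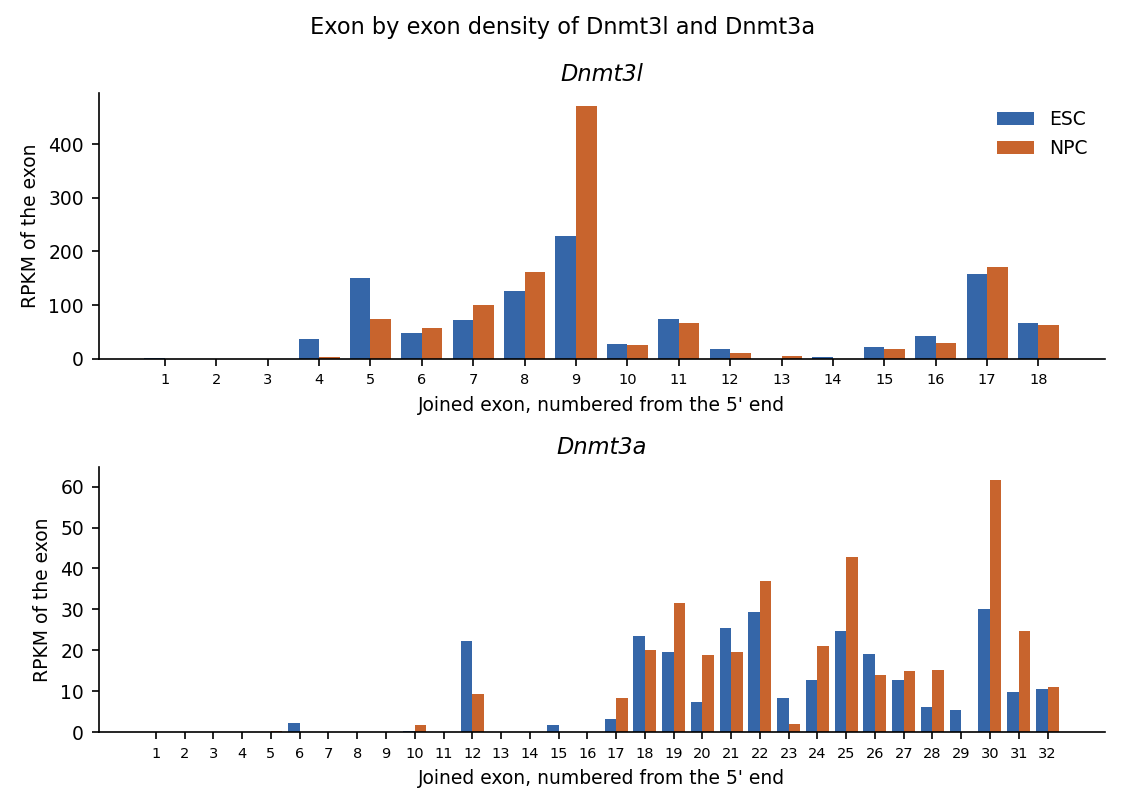
RPKM of each joined exon of *Dnmt3l* (top) and *Dnmt3a* (bottom), numbered from the 5′ end, in the ESC library (blue) and the NPC library (orange). In *Dnmt3l* the first 3 exons hold 1 read in all, the 5th is lower and the 9th higher in NPCs, and in *Dnmt3a* most of the density lies from the 17th exon on, besides the 12th.

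*Tet1* (ENSMUSG00000047146.8), the main oxidase of 5-methylcytosine in stem cells, is encoded on chromosome 10 (minus strand, 62267318 to 62361866). It had 2556 exon reads in ESCs, or 598 RPM (575 to 622), more than any other of the 8 genes, and 743 in NPCs, or 169 RPM (157 to 181). The ESC library was 3.54-fold higher (3.26 to 3.85), and 5.20% of all genes had a lower NPC to ESC ratio. All 6 joined exons with at least 10 reads were lower in NPCs. The last exon, of 9255 bases, held 1325 reads in ESCs and 433 in NPCs, a ratio of 0.317 (0.284 to 0.354), and the exons before it held 1231 and 310, a ratio of 0.244 (0.215 to 0.277).

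*Tet2* (ENSMUSG00000040943.7), the paralogue that lacks the CXXC domain of TET1, is encoded on chromosome 3 (minus strand, 133126643 to 133207354). It had 587 exon reads in ESCs, or 137 RPM (127 to 149), and 195 in NPCs, or 44.3 RPM (38.3 to 51.0). The ESC library was 3.10-fold higher (2.63 to 3.67), and all 8 joined exons with at least 10 reads were lower in NPCs. Its 3rd exon, which holds much of the coding sequence, had 305 reads in ESCs and 63 in NPCs. The last exon, at a ratio of 0.437 (0.342 to 0.556), was less reduced than the exons before it, at 0.253 (0.199 to 0.317), as in *Tet1*.

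*Tet3* (ENSMUSG00000034832.8), the TET enzyme known from oocytes, zygotes and neural cells, is encoded on chromosome 6 (minus strand, 83312367 to 83391672). It had 17 exon reads in ESCs, or 3.98 RPM (2.32 to 6.37), and 145 in NPCs, or 33.0 RPM (27.8 to 38.8). The NPC library was 8.28-fold higher (5.00 to 14.6), the highest ratio of the 8 genes, and 3.12% of all genes had a higher one. Its last exon held 14 reads in ESCs and 118 in NPCs. The last exon was 8.18-fold higher in NPCs (4.69 to 15.4), and the exons before it, with 3 and 27 reads, were 8.74-fold higher (2.69 to 45.002). Over coding bases alone there were 9 and 43 reads and the ratio was 4.64-fold. This value lies below the interval of the whole gene, just below that of the last exon and within that of the exons before it.

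**Figure D4:**
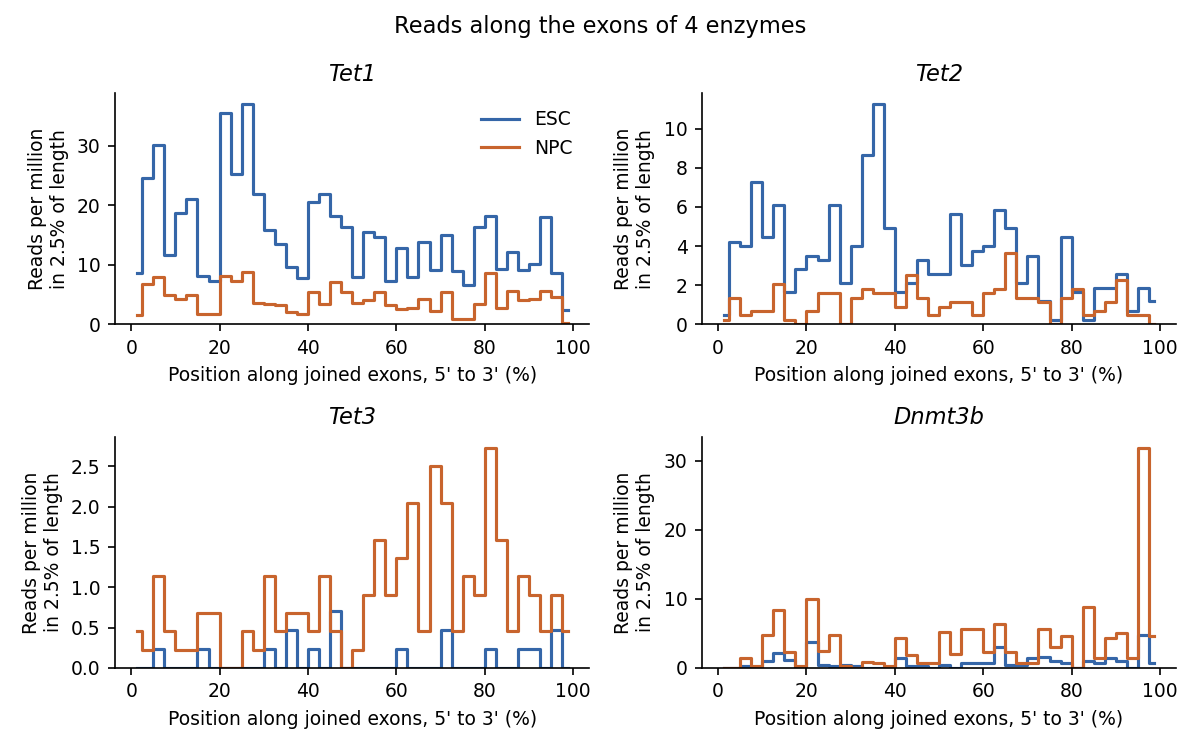
RPM along the joined exons of *Tet1*, *Tet2*, *Tet3* and *Dnmt3b*, from 5′ to 3′, in 40 steps of equal length, for the ESC library (blue) and the NPC library (orange). Each panel has its own scale. *Tet1* and *Tet2* are lower in NPCs along most of their length, *Tet3* reads in NPCs crowd towards the 3′ side, and *Dnmt3b* has a peak in its last exon in NPCs.

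The TET genes thus went opposite ways. Summed per base of exon they stood at 56.0 RPKM in the ESC library and at 19.3 RPKM in the NPC library. *Tet3* made up 0.641% of the sum in ESCs and 15.4% in NPCs, and *Tet1* 72.7% and 59.6%. *Tet1* was 113-fold above *Tet3* in ESCs and 3.86-fold above it in NPCs, so that the ratio of *Tet3* to *Tet1* was 29.3-fold higher in NPCs (17.5 to 52.0), or 18.8-fold over coding bases (8.93 to 44.2). *Tet2* relative to *Tet1* was 0.367 in ESCs and 0.419 in NPCs, a change of 1.14-fold with an interval from 0.948 to 1.37 that includes 1. These ratios lie within a library and do not move with the scaling between libraries.

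Among the de novo genes, *Dnmt3b* was 0.958 of *Dnmt3a* per base of exon in ESCs (0.786 to 1.16) and 3.87 in NPCs (3.45 to 4.35). The annotated exons of *Dnmt3a* include retained introns, and over coding bases the ratio was 0.509 in ESCs (0.387 to 0.665) and 1.57 in NPCs (1.33 to 1.87). The change was 4.04-fold over all exon bases (3.22 to 5.08) and 3.09-fold over coding bases (2.24 to 4.27). *Dnmt3l* relative to *Dnmt3a* was 7.65 in ESCs and 7.12 in NPCs, and the change of 0.931 had an interval from 0.787 to 1.10. Over coding bases it was 7.11 and 5.94, a change of 0.836 with an interval from 0.662 to 1.05. *Tet1* relative to *Dnmt1*, an oxidase against the maintenance enzyme, was 0.832 per base of exon in ESCs (0.775 to 0.894) and 0.286 in NPCs, a change to 0.344 (0.305 to 0.388). Over coding bases *Tet1* stood above *Dnmt1* in ESCs, at 1.12 (1.04 to 1.22), and below it in NPCs, at 0.339, a change to 0.302 (0.261 to 0.349).

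Levels between genes were compared per coding base, since the annotated exons of *Dnmt3a* include introns. In ESCs the order was *Dnmt3l* (104 RPKM, 95.6 to 113), *Tet1* (57.0 RPKM), *Dnmt1* (50.8 RPKM), *Uhrf1* (43.2 RPKM), *Tet2* (19.2 RPKM), *Dnmt3a* (14.6 RPKM), *Dnmt3b* (7.44 RPKM) and *Tet3* (0.421 RPKM, 0.193 to 0.799). Each stood above the next by more than counting error, the closest being *Tet1* over *Dnmt1* at 1.12-fold (1.04 to 1.22). In NPCs the order was *Dnmt3l* (112 RPKM, 103 to 121), *Dnmt1* (41.4 RPKM), *Uhrf1* (40.8 RPKM), *Dnmt3b* (29.5 RPKM), *Dnmt3a* (18.8 RPKM), *Tet1* (14.1 RPKM), *Tet2* (5.17 RPKM) and *Tet3* (1.95 RPKM, 1.41 to 2.63). There *Dnmt1* and *Uhrf1* were not apart, with a ratio of 1.02 (0.904 to 1.14), and every other neighbour was. On this scale *Dnmt3l* led in both libraries and *Tet3* came last in both, while *Tet1* moved from the 2nd place to the 6th and *Dnmt3b* from the 7th to the 4th. The order at the top in ESCs depends on the scale. Over all exon bases, in place of coding bases, *Dnmt3l* was at 50.1 RPKM in ESCs and *Dnmt1* at 48.9 RPKM. A further scale divided all exon reads by the kilobases of exon starts from which a read lies whole within a joined exon. It allows only roughly for the junction reads that were not placed, since reads with 1 base in an exon were still counted. *Dnmt1* was first on it in ESCs with 74.1 reads per 1000000, before *Dnmt3l* with 69.9, *Tet1* with 42.4 and *Uhrf1* with 41.6. In NPCs *Dnmt3l* was first on that scale too, with 73.0, before *Dnmt1* with 60.8.

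The 4 genes more than 2-fold apart start in promoters that differ in CpG content. The sequences around their starts are shown with each CG in capitals, since CpGs are what these enzymes act on. They are from RefSeq (GRCm38.p6), 70 bases before and 30 after the start, with their exact and single matches in mm9.
Tet1, chr10:62350043-62350142, minus strand: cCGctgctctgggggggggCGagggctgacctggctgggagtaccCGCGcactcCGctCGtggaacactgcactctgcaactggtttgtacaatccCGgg
Tet2, chr3:133207325-133207424, minus strand: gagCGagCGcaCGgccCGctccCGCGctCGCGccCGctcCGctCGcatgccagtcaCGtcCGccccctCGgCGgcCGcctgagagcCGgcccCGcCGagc
Tet3, chr6:83391643-83391742, minus strand: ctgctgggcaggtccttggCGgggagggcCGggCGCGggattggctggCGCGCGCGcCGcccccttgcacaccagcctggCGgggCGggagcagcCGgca
Dnmt3b, chr2:153475115-153475214, plus strand: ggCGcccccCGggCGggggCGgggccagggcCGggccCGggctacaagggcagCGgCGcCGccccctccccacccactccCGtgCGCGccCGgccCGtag

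The 300-base window of *Tet2* held 57 CpGs, more than 99.8% of all RefSeq promoters, *Dnmt3b* held 30, *Tet3* 22 and *Tet1* 17. The genes lower in NPCs thus included the richest and the poorest window of the 4. Reads near the starts were few. Within 500 bases of the start *Tet1* had 9 reads in ESCs and 2 in NPCs, *Tet2* 1 and 1, and *Tet3* and *Dnmt3b* 0 and 0. The start in use therefore cannot be read from these data for *Tet2*, *Tet3* and *Dnmt3b*, nor for *Tet1* in NPCs. The RefSeq start of *Tet1* at 62350072 lies inside the gene as GENCODE M1 annotates it, whose own first exon had 0 reads in both libraries.

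In the 15 RefSeq windows of the 8 genes, all of which matched mm9 once, 4 short motifs were searched on both strands. TTTCGCGC, a form of the E2F site, was in 2 windows, the third of *Dnmt1* and the second of *Uhrf1*, and is held by 0.323% of all 32851 promoters. Few reads lay within 500 bases of these starts, 0 in ESCs and 2 in NPCs for *Dnmt1* and 4 and 6 for *Uhrf1*. More lay behind the second start of *Dnmt1* (15 and 16) and the first of *Uhrf1* (14 and 10), whose windows lack the motif. CACGTG, the E-box, was in 2 windows, the middle one of *Dnmt3l* and that of the short *Dnmt3a* transcript, against 7.15% of all. GGGGCGGGG, a GC box, was in 3 windows against 11.4% of all, and CCAAT in 5 against 37.4%. None of the motifs overlaps another by its letters, a match describes these letters only, and no binding was measured.

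The reads of the 8 genes lay on the annotated strand. Antisense exon reads numbered 4 of 6113 in ESCs, or 0.0654% (0.0178 to 0.167%), and 0 of 4526 in NPCs (0 to 0.0815%). Introns held 8.56% of the gene strand reads within the genes in ESCs (7.90 to 9.26%) and 11.4% in NPCs (10.6 to 12.3%). The median over single protein-coding genes was 14.6% in ESCs and 13.3% in NPCs, an unlike measure, since the 8 genes were pooled. Their pooled share depends on how many reads each gene gave. *Tet3* had the highest intron share, with 16 of 33 reads in ESCs (48.5%, 30.8 to 66.5%) and 44 of 189 in NPCs (23.3%, 17.5 to 30.0%), followed by *Dnmt3b* at 28.6% (22.4 to 35.6%) and 16.8% (14.2 to 19.6%). The other 6 genes lay between 4.31% and 12.5% in ESCs and between 6.26% and 14.5% in NPCs. Within single genes the share was thus lower in NPCs for *Tet3* and *Dnmt3b*, and it was higher for each of the other 6. The exon reads that set the ratios of NPC to ESC are also part of these shares.

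The 3′ side of the joined exons, cut at the middle of their length, held 47.7% of the exon reads in ESCs (46.4 to 48.9%) and 56.8% in NPCs (55.4 to 58.3%). Over all protein-coding genes with at least 10 reads the pooled share was 51.3% in ESCs and 52.5% in NPCs. The pooled share of the 8 genes depends on how many reads each of them gave. Within single genes the 3′ share was 37.4% in ESCs (35.6 to 39.4%) and 44.3% in NPCs (40.7 to 47.9%) for *Tet1*, 38.7% (34.7 to 42.7%) and 52.3% (45.1 to 59.5%) for *Tet2*, and 46.5% (42.4 to 50.5%) and 54.2% (50.2 to 58.1%) for *Uhrf1*. The intervals of the libraries lie apart for *Tet1* and *Tet2* and overlap for *Uhrf1*. The share was also higher in NPCs for *Dnmt3b* (64.2% and 69.7%) and *Tet3* (47.1% and 70.3%), and it was lower in NPCs for *Dnmt1* (63.7% and 59.2%), *Dnmt3l* (37.0% and 32.9%) and *Dnmt3a* (88.4% and 86.6%), all 5 with overlapping intervals.

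The 3 protein-coding genes whose RPKM in ESCs and NPCs was nearest to that of *Tet1*, by Euclidean distance on the log2 scale over the 2 libraries, were *Fos* (distance 0.05, 41.0 and 11.9 RPKM), *Ddit4* (0.18, 45.6 and 12.1 RPKM) and *Itpk1* (0.19, 36.6 and 10.6 RPKM). *Tet1* itself stood at 40.7 and 11.5 RPKM.

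Genes around these enzymes were taken from lists by their known roles, and their log2 ratios of NPC to ESC are given beside the median of 0.35 over all genes, of which 25.5% were more than 2-fold higher and 13.3% more than 2-fold lower in NPCs and 37.1% lower by any amount. The 9 readers of methylated DNA were all higher in the NPC library, 2 of them more than 2-fold, a count near the 25.5% of all genes, and 6 were above and 3 below the median gene. Their median log2 ratio was 0.81. *Mbd2*, a methyl-CpG binding subunit of a NuRD complex, was at 42 ESC and 157 NPC reads, 3.63-fold higher in NPCs. *Zbtb33*, which encodes the zinc finger protein KAISO, had 135 and 341 reads and was 2.45-fold higher.

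Of 14 genes of excision repair, which removes oxidised or deaminated bases, 2 were more than 2-fold higher and 2 more than 2-fold lower in NPCs, with a median log2 ratio of -0.40. *Polb*, the repair polymerase, had 13 reads in ESCs and 43 in NPCs (3.21-fold higher in NPCs). The other 3, named after their values were seen, had fewer than 50 reads each, namely *Gadd45g* with 11 and 23, *Neil1* with 11 and 4 and *Neil3* with 23 and 11. *Tdg*, the glycosylase that removes the products of TET oxidation and so links both groups, was also looked up after the values were known, at 129 and 194 reads, a ratio of 1.46.

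Of 15 partners and guides of methylation, 0 were more than 2-fold higher in NPCs and 2 more than 2-fold lower, 10 were higher and 5 lower by any amount, and the median log2 ratio was 0.14, with 3 above and 12 below the median gene. *Zfp42*, a zinc finger gene known as Rex1, was at 707 ESC and 289 NPC reads, 2.52-fold higher in ESCs. *Dppa3*, named after its value was seen, had 15 and 7 reads. The list of TET partners held 7 genes with at least 10 reads, of which 1 was more than 2-fold higher and 1 more than 2-fold lower in NPCs. *Cxxc1*, whose protein binds unmethylated CpGs, was 2.03-fold higher in NPCs (21 and 44 reads). Its place on the list does not show that it acts with a TET enzyme, which was not tested. *Prdm14*, a regulator of pluripotent and germ cells, was 10.3-fold higher in ESCs (4.98 to 24.7, 80 and 8 reads). The median of the 7 was 0.05.

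Of 11 genes of the methyl donor cycle, which supplies S-adenosylmethionine, 2 were more than 2-fold higher in NPCs and 1 more than 2-fold lower, with a median log2 ratio of 0.04. *Mat2a*, the synthetase of S-adenosylmethionine, had 236 reads in the ESC and 871 in the NPC library and was 3.58-fold higher in NPCs (3.10 to 4.15). *Trdmt1*, a relative of the DNA methyltransferases that methylates tRNA, had 11 and 45 reads and was 3.97-fold higher (2.02 to 8.51). *Gnmt*, a consumer of the donor named after its value was seen, had 16 reads in ESCs and 0 in NPCs.

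**Figure D5:**
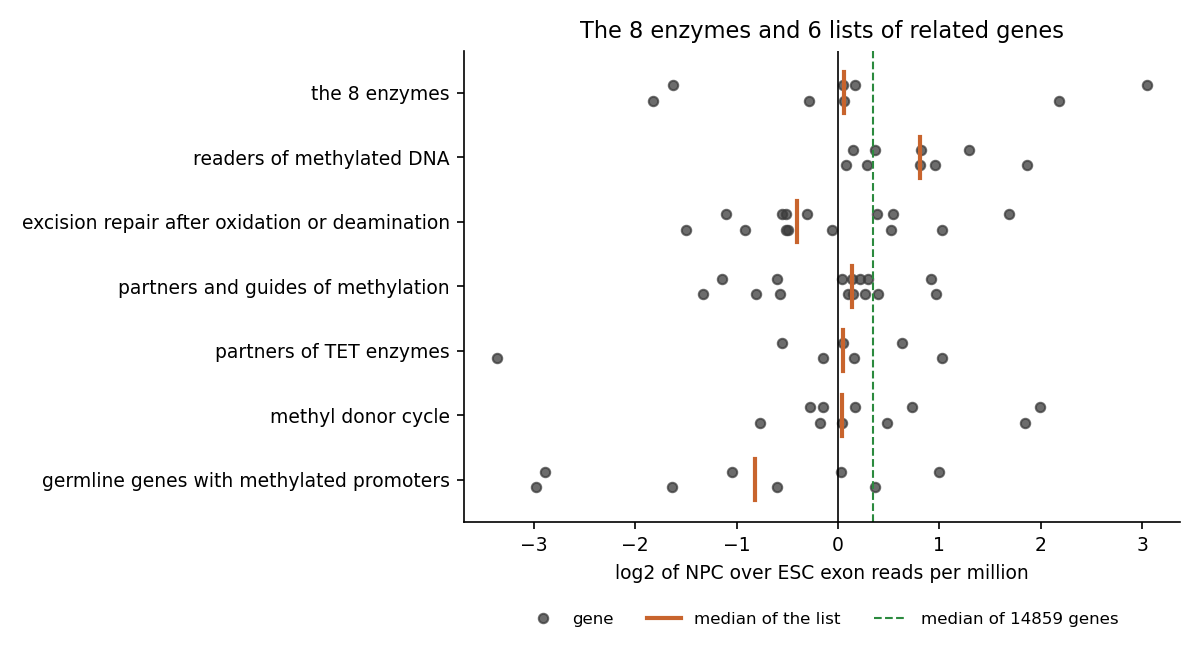
Log2 ratio of NPC to ESC for the 8 enzymes and for 6 lists of related genes with at least 10 reads (points), with the median of each list (orange bar) and of all 14859 genes (dashed line). *Gnmt*, at 0 reads in NPCs, has no point. The 9 readers of methylated DNA all lie above 0, and the 8 enzymes span from -1.83 to 3.05.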

How the data were processed

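Per the labels and the study's methods, the authors took out oligo(dT)-bound RNA in repeated passes, then rRNA, sequenced the NPA fraction on SOLiD, and placed the reads on mm9 by Bowtie (version not given in the sources used here), keeping 1 placement per read whether or not it was unique. They removed mitochondrial, ribosomal and repeat reads. The deposited files hold the positions, strand and 48 nt sequence of each read, 1 line per read, and no counts or other normalized values. Reads were counted here over the joined GENCODE M1 exons of 37273 genes. RPM and RPKM use the library total. No read was added to ratios. A call means more than 2-fold with at least 10 reads in both libraries together, and 0 reads stand for at most 3.

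The 8 genes and all lists were chosen with earlier results of these data known. The named list genes are those past 2-fold with at least 50 reads, at most 4 a list. With 1 library per cell type no test was made. Each sequence was looked up on both strands of mm9, and 78.2% of ESC and 83.2% of NPC reads occurred exactly once. The reads began at 1531216 and 1848069 distinct positions and strands. Alternatives numbered 12, and 1 more was chosen after seeing the data. Counting and intervals were tested on simulated data. The tools were SciPy 1.17.1, NumPy 2.4.6, matplotlib 3.10.9, numba 0.67.0 and Python 3.11.15. A single gene of the methyl donor list is not reported here and was left out of its counts.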

Additional observations from a re-analysis of the deposited data

How the results depend on the processing

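The same 4 genes were more than 2-fold apart, in the same direction, under all 13 alternatives, and *Dnmt1* stayed lower in NPCs under all 13. The signs of *Dnmt3a* (9 of 13 as reported), *Dnmt3l* (7) and *Uhrf1* (7) depended on the setting. Of the 8 genes 6 were lower in NPCs, in place of 3, under 4 settings. Scaled to the median gene, the log2 ratios were -0.63 for *Dnmt1*, -0.18 for *Dnmt3a*, 1.84 for *Dnmt3b*, -0.28 for *Dnmt3l*, -2.17 for *Tet1*, -1.98 for *Tet2* and -0.30 for *Uhrf1*, with 6 genes lower and a median of -0.29. Scaled to the exon reads of protein-coding genes without histones they were -0.61, -0.16, 1.86, -0.26, -2.15, -1.96 and -0.28 in the same order, with 6 lower and a median of -0.27. Counting each start once gave -0.52 for *Dnmt1*, -0.094 for *Dnmt3a*, 1.08 for *Dnmt3b*, -0.38 for *Dnmt3l*, -1.62 for *Tet1* and -0.32 for *Uhrf1*, with 6 lower and a median of -0.35. Adding the median-gene scale to it, a choice made after seeing the data, gave -0.54, -0.11, 1.06, -0.40, -1.64 and -0.34, with 6 lower and a median of -0.37. Reads found once in mm9 gave -0.42 for *Dnmt1*. Coding bases gave 0.36 for *Dnmt3a*, -2.02 for *Tet1*, -1.89 for *Tet2* and 2.21 for *Tet3*. The 5′ side gave -0.12 for *Dnmt1*, 0.37 for *Dnmt3a*, -1.995 for *Tet1*, -1.98 for *Tet2*, 2.21 for *Tet3* and -0.18 for *Uhrf1*, and the 3′ side gave -0.10 for *Dnmt3l*, -1.58 for *Tet1*, -1.23 for *Tet2* and 0.26 for *Uhrf1*. Each start once gave an intron share of 14.0% in ESCs and 18.7% in NPCs, and a 3′ share of 48.9% in ESCs. Over all genes, 3795 were more than 2-fold higher and 1969 lower in NPCs, but 5895 and 4293 with no minimum of reads, 1121 lower with at least 50 reads, and 2459 higher and 2864 lower relative to the median gene. These changes follow from the reads and totals that each setting uses, and other causes were not tested.

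No paired analysis was possible because each cell type has 1 library. Depth limited *Tet3* most, with 17 ESC reads, together with the start exons and alternative exons of *Dnmt3a* and *Dnmt3b*. Junction reads were not placed, so levels of genes with short exons are too low.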

Other observations

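Of 10 germline genes whose promoters are known to be methylated in somatic cells, 8 had at least 10 reads. Of these, 0 were more than 2-fold higher in the NPC library, against 25.5% of all genes. More than 2-fold lower were 4, against 13.3% of all genes. The median log2 ratio of the 8 was -0.82, beside 0.35 over all genes. *Sohlh2*, a transcription factor of germ cells, was at 192 ESC and 25 NPC reads, 7.91-fold higher in ESCs (5.20 to 12.5). *Tuba3a*, a testis tubulin, had 216 and 30 reads (7.42-fold, 5.05 to 11.3). *Dazl*, an RNA-binding protein of germ cells, had 256 and 85 reads (3.10-fold, 2.42 to 4.01). *Taf7l*, named after its value was seen, had 8 and 4 reads (2.06-fold, 0.552 to 9.35), with an interval that includes 1. The other 4 did not pass 2-fold, and *Tex19.1*, at 153 and 314 reads and a ratio of 1.99 (1.64 to 2.43), lay just under it. No methylation was measured in these libraries.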
